A study of Mus musculus with 102 samples.

Results

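Spleens of 20-month-old mice were compared with spleens of 3-month-old mice across all genes that carried a usable signal. The groups held 7 animals at 20 months and 7 animals at 3 months, so 14 of the 102 samples of the series. All were male C57BL/6J mice labelled WT, with no treatment named. A gene entered the comparison when its value was 10 or more in at least 5 of the 45 spleen libraries of the ageing table, which kept 16243 of 51810 genes. At the edge of this filter the value in the fifth highest library was 10.04 for Ly6g6d, which was kept, and 9.99 for Dnmt3c, which was not. The other spleens of that table came from mice of 5, 8, 14 and 26 months (9, 8, 9 and 5 animals). The series also holds brains of ageing mice, with the same codes in their titles as the spleens, and spleens of WT animals from an mTOR study, 3 old ones (21 or 23 months) and 3 young ones (5 months), male as well and of the same strain. That study also holds old and young spleens labelled mTOR, of the same ages, which entered only the fit of that study. Bulk RNA was sequenced, so fewer cells of a type and less RNA per cell cannot be told apart in any value below.

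The spleen filters blood in its red pulp, where macrophages take up old red cells, and holds B and T cells in its white pulp. In mice it also remains a site of blood formation in adult life. Neutrophils make their granule proteins in a fixed order while they mature: azurophil (primary) granules first, then specific (secondary) granules, then gelatinase granules, and transcripts of the earlier classes are normally found in dividing precursors and not in mature cells. Naive T cells are exported from the thymus, an organ that shrinks with age, and carry transcription factors such as those encoded by Lef1 and Tcf7.

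Values are normalised read counts: reads of a gene divided by 1 size factor per library. Where 3 values are given for an age they are the lowest, the median and the highest of its 7 animals. A log2 fold change is 20 minus 3 months on the log2(value + 1) scale, which understates changes of low genes, and where a gene is said to change by a value it is this one; a gene is called higher or lower when its limma adjusted p is under 0.05. Reads in genes ran from 3031246 to 11702988 per library at 20 months (median 7666298) and from 3105557 to 9068038 at 3 months (median 8006290). A count of 0 allows up to 3 reads, which is a value of 1.51 to 6.75 in the 20-month libraries and of 1.99 to 6.56 in the 3-month libraries. The labels do not say how animals were housed or collected, so p-values measure the spread between animals only. In the main limma fit that spread was taken within ages and pooled over all spleens of the ageing table. It was not taken from the 3- and 20-month spleens alone.

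Among the 14 libraries, 2 stood apart from their groups. 3-month replicate 5 lay at 81.6 on the first principal component of the 45 spleens, against -47.5 to 5.87 for the other 3-month libraries, beside 20-month replicates 4, 5 and 6 at 64.1 to 77.3. The other 20-month libraries lay at -45.9 to 19.5 on that component, and 14-month replicates 6 and 7 at 50.7 and 79.5. 8-month replicate 5 lay at 42.95 and 26-month replicates 1 and 5 at 90.2 and 85.7, so a high place on it was not particular to 20 months. On the second component 3-month replicate 5 lay at 16.6, within the 1.75 to 38.0 of the other 3-month libraries. No 20-month library was above 5.96 there. Whether the age label of 3-month replicate 5 is right is in doubt and could not be checked, and every 3-month range and overlap below includes this library as labelled. Its share of reads in Malat1, a nuclear RNA, was 0.806%, against 1.18 to 1.92% in the other 3-month libraries. Over the 20-month libraries that share was 0.774, 1.06 and 1.13% in replicates 4, 5 and 6 and up to 3.17% in the other 4. It was 0.741% in 8-month replicate 5 and 1.17 and 1.06% in 14-month replicates 6 and 7. In 26-month replicates 1 and 5 it was 0.858 and 0.579%. 14-month replicate 1 lay at 25.2 on the first component with a share of 2.79%. 20-month replicate 2 was the shallowest library and lay at -168 on the second component, against -79.9 to 5.96 for the others of its age. It also had the highest values of 4 genes of maturing sperm, the kinase Pgk2 (104, against at most 22.9 in the other 20-month spleens), Adam18 (128), Plcz1 (198) and Rnf151 (67.5). At 3 months Pgk2, Plcz1 and Rnf151 reached 26.03, 38.62 and 20.99, against 3-month medians of 2.19, 0.748 and 0.757. Raised values of these genes were therefore not particular to 20-month replicate 2. Adam18 reached only 4.2 at 3 months. The part of these differences in the results was not tested, and the list counts below are given with and without both libraries where they differ.

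**Figure D1:**
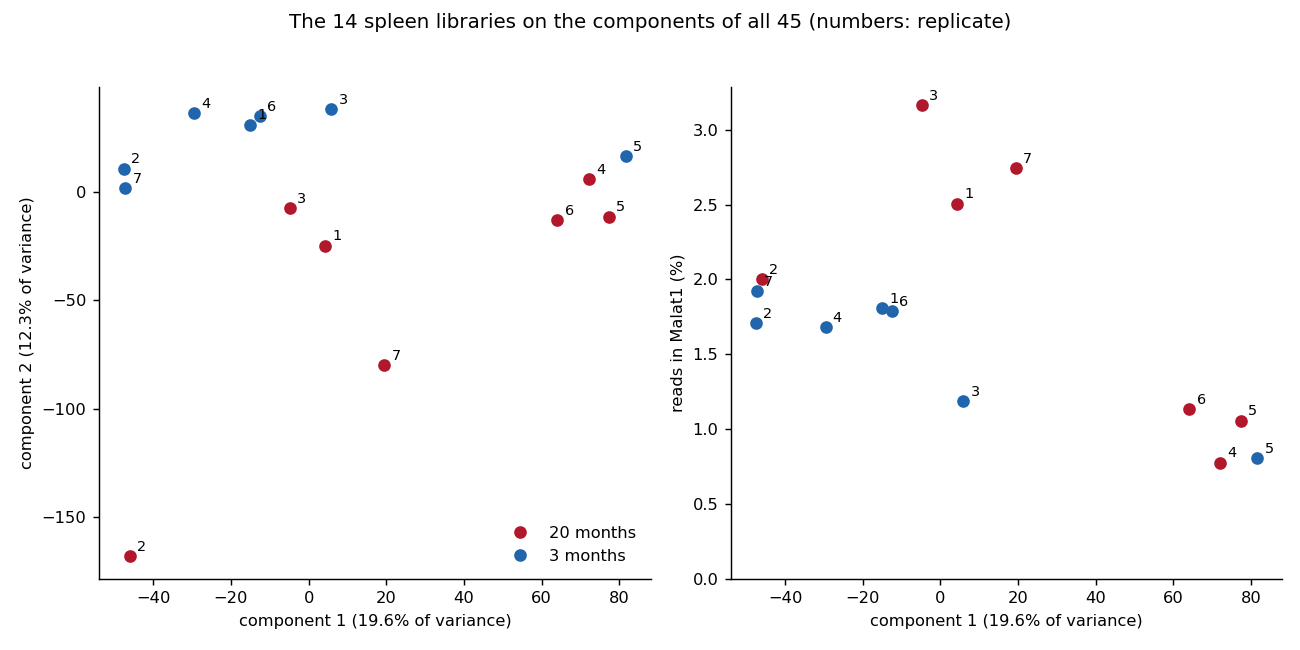
Left, the 14 spleen libraries (20 months red, 3 months blue) on components 1 (19.6% of variance) and 2 (12.3%) of all 45 spleens; right, component 1 against the percentage of reads in Malat1. Numbers are replicates: 3-month replicate 5 lies with 20-month replicates 4, 5 and 6 on component 1, and 20-month replicate 2 lies at -168 on component 2.

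In the comparison of 20 with 3 months 1733 of 16243 genes were called (10.7%), 973 higher (5.99%) and 760 lower (4.68%). The called increases were the larger ones, with a median log2 fold change of 1.18 and 638 genes past 1, against a median of -0.76 and 223 genes past -1 for the decreases. The median over all tested genes was 0.0045. Groups did not overlap for 140 genes (0.862%), 88 higher (0.542%) and 52 lower (0.32%). edgeR on the recovered reads called 1984 (12.2%), 1193 higher (7.34%) and 791 lower (4.87%), and DESeq2 2476 (15.2%), 1552 higher (9.55%) and 924 lower (5.69%). With the 3- and 20-month libraries alone limma called 875 genes, 553 higher and 322 lower. Without the 2 libraries that stood apart limma called 1535 higher and 1140 lower. Leaving out 3-month replicate 5 alone gave 2739 calls and leaving out 3-month replicate 4 gave 1006, and 778 genes (473 higher, 305 lower) were called whichever of the 14 libraries was left out. Of 567 genes in the marker lists used below 513 passed the filter, some only through the age in which they were high, and list counts cover those tested. Over all tested genes the shares were 5.99% higher and 4.68% lower, and a count of 1 in most lists is near them.

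Of the 15 largest increases 14 were genes of the neutrophil lists, with log2 fold changes of 3.60 to 5.53. The lists were drawn up with earlier results of these data known. This overlap and the list counts here and below are therefore descriptions and not independent tests. In the azurophil granule list 5 of 7 tested members rose and 0 fell, with a median log2 fold change of 3.95. In the specific granule list 9 of 11 rose and 0 fell, with a median of 3.94. Both counts were the same whichever library was left out and in edgeR and DESeq2, and without the 2 libraries that stood apart 10 specific granule genes rose.

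Among the specific granule genes, Ltf encodes lactoferrin, which withholds iron from microbes, and had 73.4, 1073 and 1516 at 20 months, against 0.992, 9.08 and 197 at 3 months. The values of 5 of the 20-month spleens were above every 3-month value, and the other 2 (replicates 1 and 3, at 169.6 and 73.4) lay below 3-month replicate 5, the highest of its age. The other 3-month spleens were at 18.7 or less, and the log2 fold change was 5.53 (SE 0.86, limma adjusted p = 0.00011). Ngp, a cystatin-like granule protein, had 57.9, 1303 and 2749.9 at 20 months, against 0.992, 19.7 and 289 at 3 months. Camp, the precursor of the antimicrobial peptide cathelicidin, had 43.3, 553 and 753 at 20 months, against 0, 7.56 and 86.8 at 3 months. In both, 20-month replicate 3 alone was below 3-month replicate 5, and the log2 fold changes were 5.43 and 5.11. Fcnb encodes ficolin B, a lectin that starts complement, and had 6.95, 59.2 and 182 at 20 months, against 0, 0 and 14.6 at 3 months. It had no read in 5 of the 3-month spleens, and its log2 fold change was 4.90 (SE 0.75, limma adjusted p = 9.75e-05).

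Lcn2 encodes lipocalin 2, which binds bacterial iron carriers, and had 27.8, 381 and 867 at 20 months, against 3.03, 11.2 and 131 at 3 months. Chil3 encodes the chitinase-like protein Ym1, shares sequence with Chil4, and had 19.3, 275 and 711 at 20 months, against 1.98, 8.74 and 44.4 at 3 months. Their ranges overlapped through the lowest 20-month spleens and 3-month replicate 5, and they changed by 3.94 and 4.34. Cd177, a surface glycoprotein of neutrophils, changed by 3.57 (SE 0.78, limma adjusted p = 0.00244), and Hp, whose product haptoglobin binds free haemoglobin, by 2.91. Anxa1, encoding the anti-inflammatory annexin A1, changed by 1.75. Lrg1 (0.96, limma adjusted p = 0.226) and the oxidase subunit Cybb (0.22, limma adjusted p = 0.341), which many phagocytes use, did not pass.

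Ltf, Ngp and Camp all lie on chromosome 9 (GRCm38), Ltf at 111019271-111042767 on the plus strand, Ngp at 110419747-110423012 on the plus strand and Camp at 109847379-109849617 on the minus strand. Fcnb lies on chromosome 2 at 28076378-28084885 on the minus strand. The 250 bases before the RefSeq start of these 4 genes (GRCm38.p6) are shown because these are the specific granule genes with the largest increases, 5′ to 3′ on the strand of the gene. Capitals mark matches to TTGCNNAA, the core of sites bound by factors of the C/EBP family, on either strand, so that a match on the other strand reads TTNNGCAA.
Ltf (chr9:111019042-111019291, plus strand): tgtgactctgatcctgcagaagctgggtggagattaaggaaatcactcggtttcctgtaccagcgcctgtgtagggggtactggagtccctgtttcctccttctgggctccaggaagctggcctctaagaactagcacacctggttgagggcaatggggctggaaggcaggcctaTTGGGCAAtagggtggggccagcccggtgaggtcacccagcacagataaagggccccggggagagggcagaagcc
Ngp (chr9:110419558-110419807, plus strand): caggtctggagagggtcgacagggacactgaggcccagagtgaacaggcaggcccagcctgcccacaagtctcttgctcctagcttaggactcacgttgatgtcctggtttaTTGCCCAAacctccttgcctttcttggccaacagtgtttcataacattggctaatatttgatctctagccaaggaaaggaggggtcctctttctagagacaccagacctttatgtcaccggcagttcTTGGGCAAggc
Fcnb (chr2:28084879-28085128, minus strand): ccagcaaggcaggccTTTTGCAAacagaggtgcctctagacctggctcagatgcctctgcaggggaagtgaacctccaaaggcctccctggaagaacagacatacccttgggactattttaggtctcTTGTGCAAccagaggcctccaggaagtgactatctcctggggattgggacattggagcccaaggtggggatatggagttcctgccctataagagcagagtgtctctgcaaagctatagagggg
Camp (chr9:109849457-109849706, minus strand): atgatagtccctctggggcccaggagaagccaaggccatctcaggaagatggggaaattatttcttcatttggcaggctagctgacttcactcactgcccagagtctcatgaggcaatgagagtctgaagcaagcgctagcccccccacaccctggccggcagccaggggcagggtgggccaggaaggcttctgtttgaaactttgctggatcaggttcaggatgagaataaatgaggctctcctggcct
Ltf held 1 match and Ngp and Fcnb 2 each, while these letters were not in the window of Camp. The RefSeq starts differ from the gene positions given above, so each window overlaps its gene as placed there. For Camp most of the window lies inside that gene, and for Ngp the match nearest the start does. Of the 15 genes with the largest increases 13 had a promoter in the RefSeq table, and 6 of these held the motif (Ltf, Ngp, Fcnb, Mmp8, Lcn2 and S100a9). Among all 32841 promoters of the same length 9.57% held it. C/EBP factors are known to act in granulocyte formation, and a match is a description of letters only.

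The azurophil granule enzymes were low at 3 months and had reads in every 20-month spleen. Mpo, whose enzyme myeloperoxidase makes hypochlorous acid, had 19.3, 179.9 and 311 at 20 months, against 0, 2.19 and 19.2 at 3 months. The lowest 20-month spleen, replicate 3, was just above the highest 3-month spleen, replicate 5, so the groups did not overlap (log2 fold change 5.12, SE 0.94, limma adjusted p = 0.000432). Elane, which encodes neutrophil elastase, had 12.4, 69.8 and 176 at 20 months, against 0, 2.98 and 15.2 at 3 months. Its neighbour on chromosome 10, Prtn3, encodes proteinase 3 and had 17, 89.6 and 219.8 at 20 months, against 3.74, 4.96 and 17.2 at 3 months. In each gene 6 of the 20-month spleens were above every 3-month spleen, and the log2 fold changes were 4.14 (SE 0.88, limma adjusted p = 0.00185) and 3.47. Ctsg, which encodes the third serine protease of these granules, cathepsin G, had 3.09, 86.9 and 110.3 at 20 months, against 0, 0 and 11.3 at 3 months, and the granulocyte-monocyte progenitor gene Ms4a3 had 5.41, 36 and 153 at 20 months, against 0, 0 and 5.97 at 3 months. The 3-month median was 0 in both, 20-month replicate 3 was the lowest of its age, and they changed by 4.62 and 3.95. Genes of the same list that other cells also use did not pass: Ctsc, which activates these proteases, had a log2 fold change of 0.21 (limma adjusted p = 0.415), and their inhibitor Serpinb1a one of -0.43 (limma adjusted p = 0.0988).

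**Figure D2:**
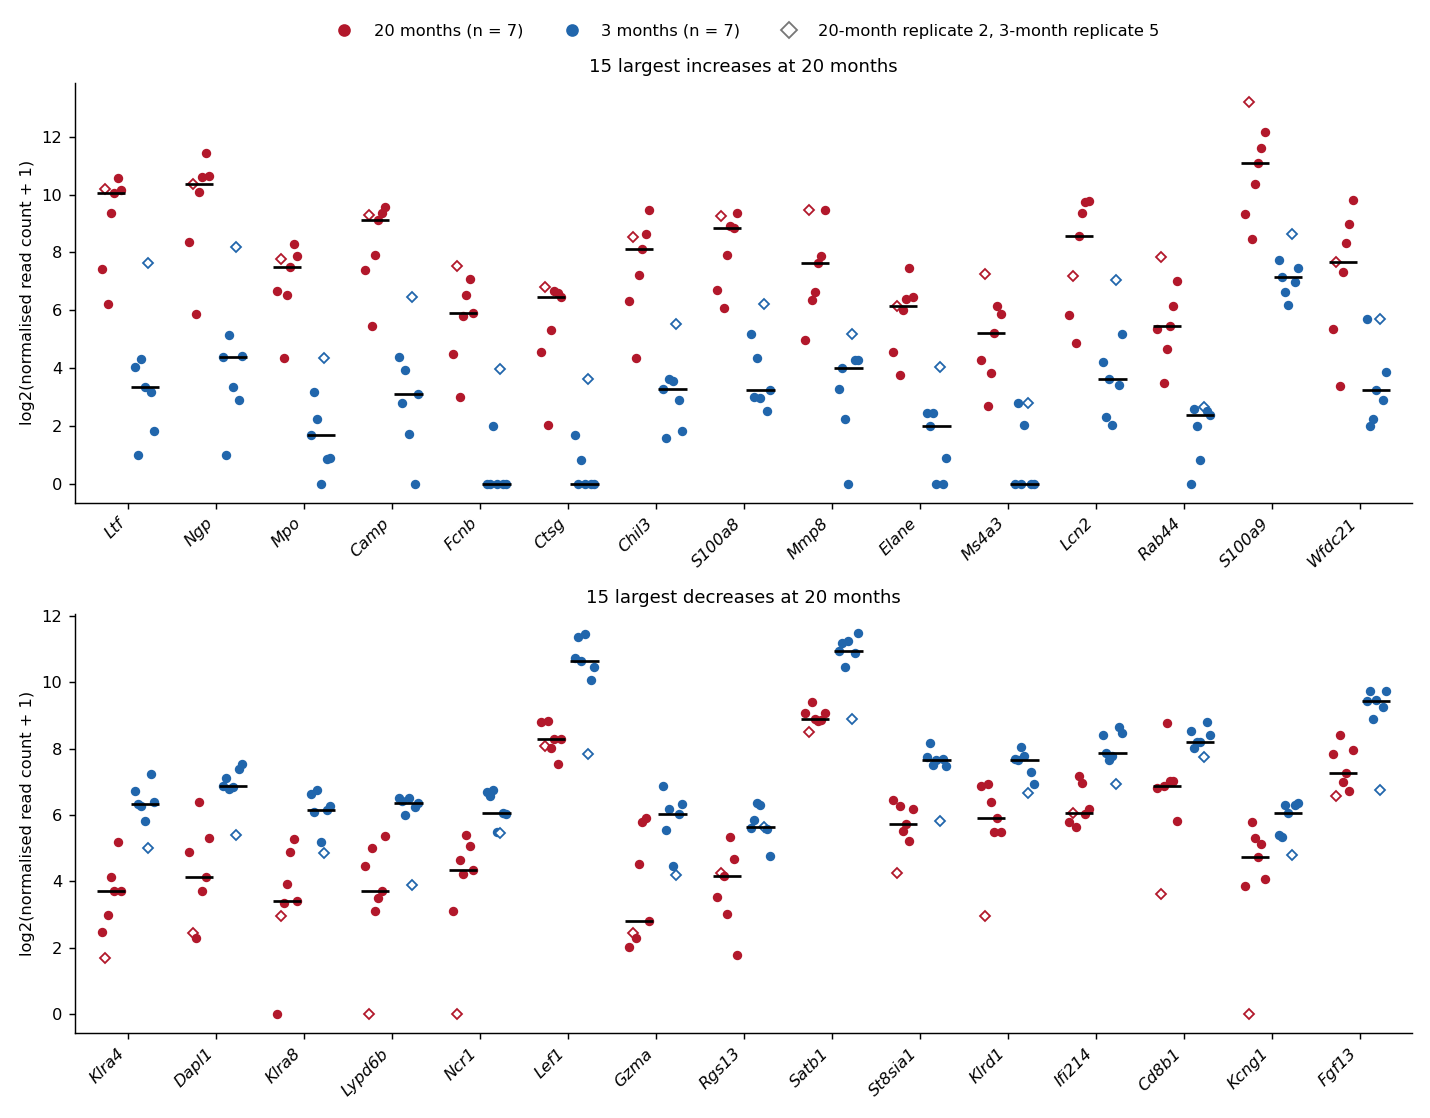
Normalised read counts, as log2(value + 1), of the 15 genes with the largest increases (top) and the 15 with the largest decreases (bottom) in each animal, 20 months in red left of 3 months in blue, 7 animals each; black bars are medians and open diamonds mark 20-month replicate 2 and 3-month replicate 5. Ltf had medians of 1073 at 20 and 9.08 at 3 months, and 3-month replicate 5 is the 3-month animal nearest to the 20-month side in all 15 increases and in 14 of the 15 decreases.

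Genes of later maturation rose in part. In the list of gelatinase granule and mature neutrophil genes 8 of 21 tested members rose and 0 fell (median log2 fold change 1.13). S100a9 and S100a8 encode the subunits of calprotectin, which binds zinc and manganese. S100a9 had 355, 2170.2 and 9405 at 20 months, against 71.1, 141 and 394 at 3 months, and S100a8 had 66.4, 461 and 652 at 20 months, against 4.75, 8.4 and 73.6 at 3 months. In both, 6 of the 20-month spleens were above every 3-month spleen, and the log2 fold changes were 3.65 (SE 0.55, limma adjusted p = 9.75e-05) and 4.23. Mmp8, the neutrophil collagenase, changed by 4.16 (SE 0.83, limma adjusted p = 0.00104), Wfdc21, a gene of the whey acidic protein family, by 3.60, and Padi4, which citrullinates histones, by 2.34. Ly6g, the surface marker used to gate mouse neutrophils, had 0, 11.2 and 36 at 20 months, against 0, 0 and 2.65 at 3 months and changed by 2.61 (SE 0.70, limma adjusted p = 0.0132). The decoy interleukin-1 receptor Il1r2 rose by 1.39 and the resistin-like Retnlg by 2.42, the last not called without 20-month replicate 2 or 7 or 3-month replicate 4. Markers with a smaller difference included Mmp9 (1.30, limma adjusted p = 0.106), Clec4e (1.13, limma adjusted p = 0.309) and Clec4d (-0.67, limma adjusted p = 0.495).

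Of 11 genes that govern granulocyte and monocyte progenitors 2 rose, the zinc-finger factor Klf4 (1.20, SE 0.25, limma adjusted p = 0.00181) and Cebpe (2.12, SE 0.72, limma adjusted p = 0.048), the C/EBP member of late granulocyte precursors, whose call held in 5 of the 14 fits that left out 1 library. Without the 2 libraries that stood apart 2 of these 11 rose and 1 fell. Csf3r, the receptor gene for G-CSF, had a log2 fold change of 0.14 (limma adjusted p = 0.855) and Cebpa one of 0.16 (limma adjusted p = 0.785). Rab44, an atypical Rab GTPase of granulated cells in the mouse, was among the largest increases with 10.04, 42.4 and 227 at 20 months, against 0, 4.2 and 5.3 at 3 months. Its groups did not overlap and it changed by 3.85 (SE 0.70, limma adjusted p = 0.000414). Of 14 genes of basophils, mast cells and eosinophils 3 rose: the basophil protease Mcpt8 (3.18, SE 0.79, limma adjusted p = 0.00672), the interleukin-33 receptor Il1rl1 (2.28) and the eosinophil major basic protein Prg2 (1.26). Mcpt8 had 0.772, 26.7 and 76.2 at 20 months, against 0, 0.748 and 24.5 at 3 months, and its highest 3-month value was that of replicate 5. Mcpt8 kept its call whichever library was left out, Il1rl1 in 8 and Prg2 in 4 of 14 cases, and without the 2 libraries that stood apart 5 of these 14 rose.

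Genes of red cell formation were very high in 2 of the 20-month spleens, replicates 2 and 7. The list of erythroid surface and skeleton genes had list means, the mean of log2(value + 1) over its members, of 4.45, 6.63 and 11.09 at 20 months, against 3.83, 5.36 and 6.56 at 3 months, and the 2 spleens were at 9.92 and 11.09 while the other 20-month spleens were between 4.45 and 7.97. All 17 members had a positive log2 fold change with a median of 2.15, and 2 rose in limma, the water channel Aqp1 (2.26, SE 0.60, limma adjusted p = 0.0127) and the skeleton anchor Ank1 (2.60). edgeR and DESeq2 each called all 17 higher, while 0 were called in limma without the libraries under 5000000 reads, which leaves out 20-month replicates 1 and 2, 3-month replicate 1 and libraries of other ages and keeps 36 of the 45 spleens. The limma count was 8 and 4 without 20-month replicates 1 and 3, 5 without 3-month replicate 5, and 1 without 20-month replicate 2, 5 or 7 or 3-month replicate 1, 2, 3, 4 or 6. In the haem and iron list 1 of 18 rose, Blvrb (1.20, SE 0.32, limma adjusted p = 0.0129), which reduces biliverdin, with no overlap between groups, against 10 in edgeR. The limma count is near the share of all tested genes called higher, 5.99%, and that share was 7.34% in edgeR. Among erythroid regulators 1 of 14 rose, the ubiquitin ligase Trim58 (2.98, SE 0.98, limma adjusted p = 0.0419), against 13 in edgeR, and its call held in 6 of 14 cases. Without both libraries that stood apart limma called 1 erythroid surface gene higher, and among the regulators 0 higher and 1 lower. The master regulator Klf1 had a log2 fold change of 2.66 (limma adjusted p = 0.0569). Cell cycle genes were highest in the same 2 spleens, with G2/M list means of 8.77 and 9.59, against 6.10 to 7.89 in the other 20-month spleens and 6.40 to 7.54 at 3 months. Of 24 G2/M genes 24 had a positive log2 fold change (median 0.65) and 0 were called in limma, 7 in edgeR and 13 in DESeq2. Limma called 4 of them without 20-month replicate 3 and 2 without 3-month replicate 5. Of 24 G1/S genes 1 rose, Gins2, with a call kept in 4 of 14 cases, and 5 in edgeR. The proliferation marker Mki67 had 1001, 3341 and 24193 at 20 months, against 1292, 1849 and 3209.5 at 3 months, and its limma adjusted p was 0.187.

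Megakaryocyte and platelet genes were higher at 20 months. Of 21 tested members 10 rose and 0 fell, with a median log2 fold change of 1.53. The list mean was 5.91, 6.49 and 8.74 at 20 months, against 4.75, 5.23 and 5.61 at 3 months, so the groups did not overlap, and the highest value, 8.74, belonged to 20-month replicate 2. Ppbp, a platelet chemokine precursor, had 569, 801 and 8439.8 at 20 months, against 283, 322 and 531 at 3 months. Tubb1, the tubulin of the platelet rim, had 55.6, 90.6 and 662 at 20 months, against 12.1, 30.8 and 44.5 at 3 months. Groups did not overlap for either, and they changed by 1.59 (SE 0.52, limma adjusted p = 0.0406) and 1.93. Itga2b, the integrin CD41, changed by 1.41, Selp, the adhesion receptor P-selectin, by 2.45, Mmrn1, a carrier of coagulation factor V, by 2.05 and Vwf, the von Willebrand factor, by 1.29. The platelet chemokine Pf4 had a log2 fold change of 1.55 and missed the threshold (limma adjusted p = 0.0546). edgeR called 16 and DESeq2 18, whereas without the libraries that stood apart limma called 5 and without those under 5000000 reads 0. The count also fell to 6 without 20-month replicate 1 or 7, 1 without 20-month replicate 2, and 1, 2, 0, 5 and 5 without 3-month replicates 2, 3, 4, 6 and 7.

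In the stem and progenitor list 3 of 14 genes rose and 1 fell. Meis1, a homeobox factor of stem cells and megakaryocytes, had 413, 575 and 818 at 20 months, against 238, 313 and 378 at 3 months. The groups did not overlap and the change was 0.95 (SE 0.20, limma adjusted p = 0.00177). The ETS factor Erg rose by 1.08 (SE 0.24, limma adjusted p = 0.00325) and the stem cell ligand Angpt1 by 1.04, while the receptor kinase Flt3, used by lymphoid progenitors and dendritic cells, fell (-0.59, SE 0.19, limma adjusted p = 0.0399). Without 3-month replicate 5, 5 of the 14 rose, and without both libraries that stood apart 3 rose and 0 fell. Kit, the stem cell factor receptor, had a log2 fold change of -0.14 (limma adjusted p = 0.76).

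T cell genes were lower at 20 months. Of 21 tested naive T cell genes 16 fell and 0 rose (median log2 fold change -1.10), and of 23 genes that T cells share 17 fell and 0 rose (median -0.94). Without the 2 libraries that stood apart 15 and 20 fell. The naive T cell list mean was 7.55, 7.91 and 8.20 at 20 months, against 8.09, 8.98 and 9.20 at 3 months, and the lowest 3-month value, 8.09 in replicate 5, was the only one inside the 20-month range.

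**Figure D3:**
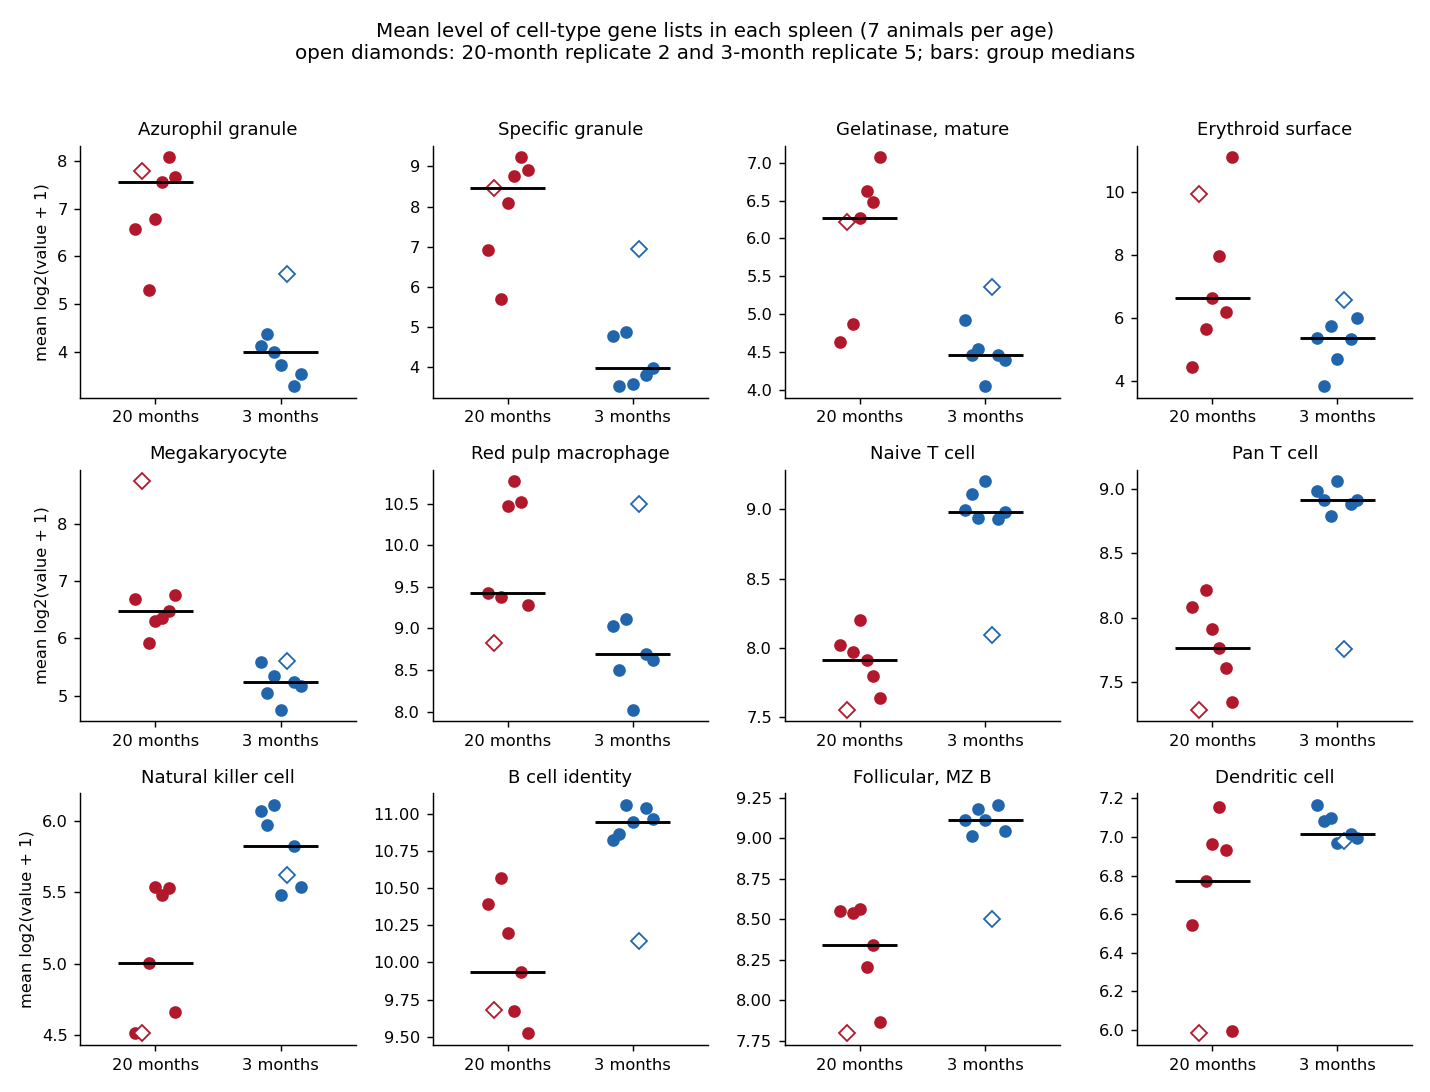
Mean of log2(value + 1) over the tested members of 12 gene lists in each spleen, 20 months (red, left) and 3 months (blue, right), 7 animals each; bars are medians and open diamonds mark 20-month replicate 2 and 3-month replicate 5. Granule and megakaryocyte lists are higher and T, B and natural killer lists lower at 20 months, and 3-month replicate 5 lies within the 20-month range in the T cell lists.

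Lef1, a partner of beta-catenin in naive T cells, had 184, 312 and 450.3 at 20 months, against 229, 1599.9 and 2802 at 3 months. The 20-month spleens were all at 450 or less and 6 of the 3-month spleens at 1068 or more, with replicate 5 at 229. Satb1, a chromatin organiser of T cells, had 358, 470.0 and 677 at 20 months, against 476, 1959 and 2879 at 3 months, with the same arrangement, and the log2 fold changes were -2.10 and -1.78 (SE 0.41, limma adjusted p = 0.0035). Dapl1, a naive T cell gene, had 3.86, 16.7 and 82.4 at 20 months, against 41.1, 116 and 186 at 3 months, and 6 of the 20-month spleens were below every 3-month spleen. Its log2 fold change was -2.68 (SE 0.47, limma adjusted p = 0.000309). St8sia1, which makes the ganglioside GD3, changed by -1.78 (SE 0.37, limma adjusted p = 0.00145), and Tcf7, which encodes TCF-1, by -1.48 (SE 0.44, limma adjusted p = 0.0245). Lower as well were S1pr1, the receptor by which lymphocytes leave tissue (-1.10), the homing receptor Ccr7 (-0.92), the diacylglycerol kinase Dgka (-1.16) and the kinase Txk (-1.02), the last with no overlap between groups.

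Among shared T cell genes, Cd8b1 had 11.3, 116 and 435 at 20 months, against 211, 295.1 and 445 at 3 months. 20-month replicate 4 was inside the 3-month range and the other 6 were below it (log2 fold change -1.70, SE 0.39, limma adjusted p = 0.00369). Cd8a changed by -1.21, the receptor subunit Cd3d by -1.04, the kinase Lck by -1.06, and the selection factor Themis by -1.54. Over the 14 fits that left out 1 library 12 to 16 naive and 13 to 20 shared genes fell, and 10 and 9 fell without the libraries under 5000000 reads. Of 22 tested effector and exhausted T cell genes Gzmk and the inhibitor of differentiation Id2 rose and Gzma fell, with a median of 0.03. Gzmk, a granzyme of memory CD8 T cells, had 25.4, 42.1 and 69.7 at 20 months, against 0.84, 8.98 and 19.9 at 3 months. The groups did not overlap and it rose by 2.53 (SE 0.48, limma adjusted p = 0.00077). The checkpoint receptors of that list had log2 fold changes of 0.32 for Pdcd1 (limma adjusted p = 0.648) and 0.27 for Lag3 (limma adjusted p = 0.609). Of 13 genes of regulatory and follicular helper T cells the factor Maf rose (0.76, SE 0.17, limma adjusted p = 0.00382), and Cxcr5 and Bcl6, which B cells also express, fell (-0.93 and -0.80).

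Natural killer cell receptors fell. Of 27 tested genes 10 fell and 1 rose (median log2 fold change -0.47). Ncr1, which encodes the activating receptor NKp46, had 0, 19.3 and 40.8 at 20 months, against 43.1, 65.8 and 108 at 3 months. Every 20-month spleen was below every 3-month spleen, and the log2 fold change was -2.33 (SE 0.46, limma adjusted p = 0.001). Klra4, a receptor of the Ly49 family, had 2.25, 12 and 35.3 at 20 months, against 31.2, 79.4 and 149 at 3 months, and 6 of the 20-month spleens were below every 3-month spleen (-2.84). Klra8, of the same family, had 0, 9.66 and 37.9 at 20 months, against 27.8, 69.7 and 108 at 3 months, and 5 of the 20-month spleens were below every 3-month spleen (-2.59). Klrd1, the CD94 partner of NKG2 receptors, had 6.75, 59.6 and 121 at 20 months, against 101, 200.4 and 261.8 at 3 months and changed by -1.72 (SE 0.36, limma adjusted p = 0.00181). Klra1, Klra7, Klra9, Klre1 and Klri2 also fell, with log2 fold changes of -1.73, -1.15, -1.87, -1.02 and -1.37. These receptor genes lie together on chromosome 6, from Klre1 at 129577905 to Klra1 at 130386874, and near-identical Klra copies may exchange reads, so their values are not independent and single members are uncertain. Ncr1 lies on chromosome 7. Gzma, granzyme A, had 3.03, 6.04 and 59.1 at 20 months, against 17.2, 64.2 and 116 at 3 months and changed by -1.98 (SE 0.66, limma adjusted p = 0.045); its call was lost when 1 library was left out in 9 of 14 cases. Klrk1, encoding NKG2D, had a log2 fold change of -0.33 (limma adjusted p = 0.252), and Il18rap, an interleukin-18 receptor chain, was the 1 member that rose (0.79). With 1 library left out 7 to 12 of these genes fell, and 11 without the 2 libraries that stood apart.

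B cell genes were lower at 20 months. Of 19 tested B cell identity genes 16 fell and 0 rose (median log2 fold change -0.85), and of 19 follicular and marginal zone genes 13 fell and 0 rose (median -0.92). Pax5, the factor that holds B cell identity, had 1906, 2539.7 and 3144 at 20 months, against 3019, 5518 and 7044 at 3 months. The lowest 3-month value was again that of replicate 5 and lay inside the 20-month range (log2 fold change -1.03, SE 0.25, limma adjusted p = 0.00672). Cd79a and Cd79b, the signalling chains of the B cell receptor, changed by -0.85 and -0.78, and the tetraspanin Cd37 by -1.08. Fcer2a, the IgE receptor CD23 of follicular B cells, had 258.8, 565 and 906 at 20 months, against 1070.5, 1252 and 2177 at 3 months, and Vpreb3, a chaperone of immunoglobulin assembly, had 9, 42.1 and 49.97 at 20 months, against 64.3, 117 and 136 at 3 months. Neither overlapped, and they changed by -1.38 (SE 0.35, limma adjusted p = 0.00771) and -1.63. Cr2, the complement receptor CD21, changed by -1.29 and Ighd, the constant region of IgD, by -1.24. Without the 2 libraries that stood apart 16 and 12 fell. The identity count was 10 without 20-month replicate 7, 3-month replicate 3 or 3-month replicate 4, and 5 and 6 genes fell in the 2 lists without the libraries under 5000000 reads.

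Other B cell states moved little or in parts. Of 11 germinal centre genes 3 fell, among them Rgs13, a regulator of G-protein signals, with 2.41, 17 and 39.2 at 20 months, against 26, 48.4 and 80.8 at 3 months and a log2 fold change of -1.90 (SE 0.48, limma adjusted p = 0.0088). Of 20 plasma cell genes 0 were called in limma, and 4 rose without 20-month replicate 2 or 3-month replicate 5, while 5 rose and 1 fell without both. edgeR called 2 higher and DESeq2 3 higher and 1 lower, and Ighg2b, the constant region of IgG2b, had 1211, 7870.4 and 14125 at 20 months, against 966, 1816 and 7378 at 3 months and missed the threshold (limma adjusted p = 0.0776). Of 14 genes of age-associated B cells 1 rose, Itgam (1.23, SE 0.25, limma adjusted p = 0.00118), an integrin that granulocytes and macrophages carry too, and the defining factor Tbx21 had a log2 fold change of -0.21 (limma adjusted p = 0.589). In the precursor list 2 of 12 genes rose and 3 fell. Dntt, the terminal transferase, had 0, 8.8 and 25.7 at 20 months, against 25.7, 31.4 and 49.5 at 3 months and fell (-2.25, SE 0.44, limma adjusted p = 0.000964), while the surrogate light chain Igll1 rose (2.81) with a call kept in 3 of 14 fits, and 3 rose and 3 fell without the 2 libraries that stood apart.

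Macrophage and monocyte genes were higher in part, and dendritic cell genes lower in part. Of 16 red pulp macrophage genes all had a positive log2 fold change (median 0.93) and 4 rose. Mertk, which clears dying cells, had 1454, 2363 and 2577 at 20 months, against 652, 987 and 1825 at 3 months, and Adgre1, which encodes F4/80, had 556, 896 and 960.0 at 20 months, against 277.7, 408 and 829 at 3 months. Their highest 3-month values were inside the 20-month range, and they changed by 0.94 (SE 0.19, limma adjusted p = 0.00145) and 0.92. The scavenger protein Cd5l changed by 1.19 and Clec4n, the C-type lectin dectin-2, by 1.16. The iron exporter Slc40a1 had a log2 fold change of 1.08 (limma adjusted p = 0.157). 3-month replicate 5 had the highest list mean of its age, 10.5, against 8.02 to 9.11 in the others; without it 8 genes rose, and 13 without both libraries that stood apart. The count was 2 without 20-month replicate 5 or 6 or 3-month replicate 2, 4, 6 or 7. Of 16 monocyte genes 1 fell and 3 rose, Chil3 above, the transglutaminase F13a1 (1.85) and the matrix proteoglycan Vcan (2.03), and 6 rose without 3-month replicate 5 and 9 without both libraries. Of 22 dendritic cell genes 5 fell and 1 rose, the integrin Itgae (0.82). Siglech, a receptor of plasmacytoid dendritic cells, fell (-1.25), as did the lectin Cd209a (-1.23), also the 1 of 5 marginal zone macrophage genes to fall, while Cd8a, Ccr7 and Flt3 of that list are shared with lists above. The count of genes that fell was 8 to 9 without 20-month replicate 4, 5 or 6 and 2 to 3 without 20-month replicate 2 or 7 or 3-month replicate 1, 3, 4, 6 or 7. Without the 2 libraries that stood apart 3 dendritic cell genes and 0 marginal zone macrophage genes fell.

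Of 20 stroma and vessel genes 2 rose and 1 fell. Lyve1, the hyaluronan receptor of lymphatic vessels and some macrophages, had 18, 40.9 and 61.6 at 20 months, against 0.84, 3.17 and 15.9 at 3 months, with no overlap and a log2 fold change of 2.99 (SE 0.57, limma adjusted p = 0.00077). Stab2, a scavenger receptor of sinus endothelium, rose by 0.83, and the endothelial and leukocyte adhesion molecule Pecam1 fell (-0.69). Without 20-month replicate 2, 3-month replicate 5 or both 4, 6 and 11 of the 20 rose; 3-month replicate 5 had the highest list mean of its age, 8.89, against 7.43 to 7.70. Of 12 cyclin-dependent kinase inhibitor and senescence genes 3 rose, among them the kinase inhibitors Cdkn2c (1.10, SE 0.29, limma adjusted p = 0.0104) and Cdkn1a, which encodes p21 (1.36, called in 4 of 14 fits with 1 library left out). Cdkn2a, whose products include p16, had 6.75, 19.7 and 30.4 at 20 months, against 2.19, 12.1 and 27.8 at 3 months and did not pass (log2 fold change 0.87, SE 0.49, limma adjusted p = 0.25). Of 20 interferon-stimulated genes 16 had a positive log2 fold change and 0 were called in limma (4 without 3-month replicate 5 and 3 without both libraries that stood apart), 2 in edgeR and 5 in DESeq2. Of 17 immediate early genes 1 rose (Klf4) and 1 fell (Btg2, -0.44), and without both libraries 2 rose and 2 fell.

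Besides several of the largest increases, the smallest p-values belonged to genes that changed less, and those given here were chosen after their values were seen. Aoah, an enzyme that removes fatty acids from bacterial lipopolysaccharide, had 237, 473 and 965 at 20 months, against 65.1, 94.2 and 165 at 3 months. Col8a1, a collagen chain of vessel walls, had 51.6, 129.8 and 183 at 20 months, against 4.96, 20.2 and 50.4 at 3 months. Neither overlapped, and they changed by 2.25 (SE 0.31, limma adjusted p = 7.49e-05) and 2.61 (SE 0.38, limma adjusted p = 8.04e-05). The phospholipase A2 receptor Pla2r1 changed by 1.56, the basement membrane protein Frem1 by 1.77 and the myeloid receptor Clec5a by 1.55, each with no overlap. Pik3r4, a subunit of the class III PI3-kinase, had 144, 268.7 and 308 at 20 months, against 365, 519.8 and 594 at 3 months and fell (-1.05, SE 0.16, limma adjusted p = 9.75e-05). Outside these, Ifi214 of the PYHIN family (-1.71), the Ly6-like Lypd6b (-2.40), Fgf13, which binds sodium channels (-1.64), and the potassium channel subunit Kcng1 (-1.67) completed the 15 largest decreases. Kcng1 lost its call without 20-month replicate 2 or 3-month replicate 3, 4 or 6, and Gzma was the other of the 30 named genes to lose one.

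Markers of tissues next to the spleen were counted too. Of 9 tested genes of the exocrine pancreas 1 rose, the elastase Cela1 (1.69, SE 0.48, limma adjusted p = 0.0178), with no call without 20-month replicate 5 or 3-month replicate 4. The summed value of the 18 listed genes was 96.9 to 4145 at 20 months, against 83.8 to 303 at 3 months, and Prss1 and Sycn are listed at 0 throughout. The highest sum was that of 20-month replicate 5. Of 10 adipocyte genes 3 rose, Pparg (1.59, SE 0.27, limma adjusted p = 0.000256), Fabp4 (1.74) and Car3 (1.89), and the desaturase Scd1 fell (-0.69), with sums of 2671 to 4793 at 20 months, against 2821 to 3826 at 3 months; the defining Adipoq had 0, 8.89 and 14.4 at 20 months, against 0.992, 5.24 and 13.3 at 3 months. Car3 was called in 4 of 14 fits with 1 library left out, and 1 of the 10 rose without 20-month replicate 5 or 3-month replicate 4, while 4 rose without 3-month replicate 5 and 6 without both libraries that stood apart. Of 10 liver genes 2 were tested and 0 called, with sums of 19.99 to 122 at 20 months, against 20.4 to 72.2 at 3 months. Genes of the mesothelial surface, chosen after values were seen, included Muc16, with 40.3, 68.8 and 241 at 20 months, against 4.37, 10.5 and 39.8 at 3 months and a change of 2.37 (SE 0.54, limma adjusted p = 0.00342), and Msln (2.46, SE 0.78, limma adjusted p = 0.0347, called in 7 of 14 fits with 1 library left out). Upk3b (1.62, limma adjusted p = 0.188) and Wt1 (0.38, limma adjusted p = 0.248) of the same set did not pass. The part of these tissues in the other results was not tested.

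Of the 567 listed genes that the data name, 23 are listed at 0 in all 14 libraries. They include Ms4a1, which encodes CD20 and is used by all mature B cells, Alas2 of red cell precursors, Cd27 and Foxp3, so that a value of 0 throughout is not a level. Summed values of markers of the labelled tissue are given as a description, with no threshold and no other tissue set beside them. The B cell identity sum was 19320.3 to 38295 at 20 months, against 25400.3 to 57152 at 3 months, and the red pulp macrophage sum was 10939.6 to 35554 at 20 months, against 5369 to 29538 at 3 months.

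Across all ages, the 3 neutrophil granule lists had their highest median list mean at 20 months, and the naive T cell and natural killer lists their lowest. Other lymphocyte lists were mixed. Medians were also lowest at 20 months for shared T cell genes (7.76), B cell identity (9.94), regulatory and follicular helper T cells (6.95) and germinal centre B cells (5.89). Those of follicular and marginal zone B cells (8.32) and B cell precursors (6.08) were lowest at 26 months. The plasma cell median was highest at 20 months (9.14), that of effector and exhausted T cells was lowest at 8 months (6.35) and that of age-associated B cells lowest at 3 months (7.81). The specific granule list mean had medians of 3.98, 5.07, 4.02, 6.14, 8.47 and 6.74 at 3, 5, 8, 14, 20 and 26 months. Ltf had medians of 9.08, 28.4, 15.3, 122, 1073 and 208, and Mpo of 2.19, 2.61, 2.56, 30.5, 179.9 and 52.8. Both had their highest median at 20 months, with ranges that overlap those of 14 and 26 months. The naive T cell list mean had medians of 8.98, 8.92, 8.86, 8.32, 7.91 and 8.17, and the natural killer list of 5.82, 5.75, 5.75, 5.40, 5.01 and 5.64. Megakaryocyte genes were highest at 26 months, at 6.68, against 6.49 at 20 and 5.70 at 14 months. The erythroid surface list mean had medians of 5.36, 6.78, 6.79, 6.14, 6.63 and 9.92 at 3, 5, 8, 14, 20 and 26 months. Its highest spleens of 5, 8 and 26 months were at 9.22, 9.45 and 11.13, so very high values were not particular to 20 months. G2/M medians were 7.16, 7.45, 7.32, 7.03, 7.65 and 9.22 over the same ages.

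**Figure D4:**
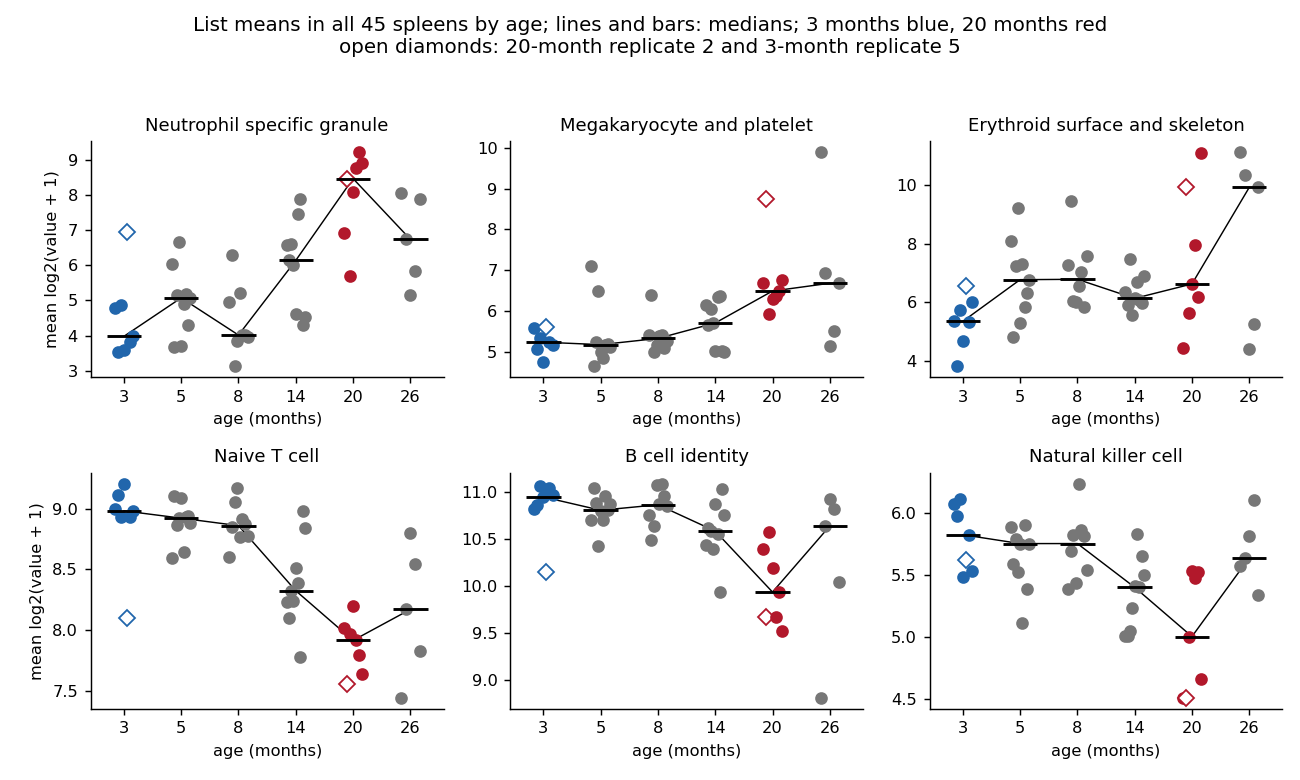
Mean of log2(value + 1) over 6 gene lists in all 45 spleens by age in months (7, 9, 8, 9, 7 and 5 animals); points are animals, bars and lines medians, 3 months blue, 20 months red. The specific granule median is 8.47 at 20 and 3.98 at 3 months, and that of naive T cells 7.91 at 20 and 8.98 at 3 months.

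Steps next to 20 months were tested in the same fit, and they share the 20-month animals with the comparison above. At 20 against 14 months 0 of 16243 genes were called in limma (0%), with 1555 at an unadjusted p under 0.05, 9 in edgeR and 155 in DESeq2. Ltf had 73.4, 1073 and 1516 at 20 months, against 11.5, 122 and 469.5 at 14 months (log2 fold change 2.71, SE 0.82, limma adjusted p = 0.284). At 26 against 20 months 626 genes were called (3.85%), 89 higher (0.548%) and 537 lower (3.31%). Among the 15 genes with the largest increases at 20 months Mmp8 was called lower at 26 months (-3.19, SE 0.91, limma adjusted p = 0.0329), and the others had log2 fold changes of -2.73 to -1.23 without a call. Cd8b1 had 235, 271.2, 281, 525 and 526 at 26 months, against 11.3, 116 and 435 at 20 months, and was called higher (1.87, SE 0.43, limma adjusted p = 0.00549). Col8a1 had 10.5, 14.8, 17.8, 21.5 and 23.3 at 26 months, against 51.6, 129.8 and 183 at 20 months, so the groups did not overlap and the 26-month values were inside the 3-month range (-2.81, SE 0.42, limma adjusted p = 7.06e-05). Frem1 (-1.64), Pla2r1 (-1.50), the endothelial Scube1 (-2.22), the zinc-finger gene Tshz2 (-2.20), Meis1 (-1.11), Klf4 (-1.75) and Stab2 (-1.34) were also called lower at 26 than at 20 months.

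Spleens of other animals, the old and young WT mice of the mTOR study, gave no call in limma. At old against young, 3 animals each, 0 of 15512 genes were called in limma (0%), with 1748 at an unadjusted p under 0.05, 0 in edgeR and 99 in DESeq2. The filter and the spread of these fits came from all 12 spleens of that study, those labelled mTOR included. Of the genes called higher at 20 months 929 were tested there and 584 (62.9%) had a positive log2 fold change, against 51.2% of all tested genes. Of those called lower 752 were tested and 507 (67.4%) had a negative one, against 48.8%. The median log2 fold changes were 0.10 and -0.11. Dapl1 had 11.3, 19.3 and 32 in old WT spleens, against 96.2, 121 and 222 in young WT spleens, with no overlap and a log2 fold change of -2.77 (SE 0.39, limma adjusted p = 0.0687). Lef1 had 229, 326 and 609.7 in old WT spleens, against 768, 820.5 and 891 in young WT spleens, with no overlap (-1.21, SE 0.26, limma adjusted p = 0.346). Ltf had 38.4, 107 and 147 in old WT spleens, against 19.96, 65.1 and 119 in young WT spleens, with overlap and a log2 fold change of 0.64 (SE 0.66, limma adjusted p = 0.722). Among the 13 genes of the largest increases that were tested there the log2 fold changes ran from -0.45 for Rab44 to 0.74 for Ngp, none with a call. Of 26 natural killer genes tested there 11 had a positive log2 fold change, 0 were called and the median was -0.03. Gzma had 8.53, 16.3 and 60.02 in old WT spleens, against 73.8, 95.3 and 108 in young WT spleens, with no overlap (-2.09, SE 0.62, limma adjusted p = 0.365), and Klra4, Ncr1, Klra8 and Klrd1 had log2 fold changes of -1.05, -0.60, -0.01 and 0.21. Ages of the young animals differ between the mTOR study (5 months) and the ageing spleens (3 months), and the difference between the sets was not tested.

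**Figure D5:**
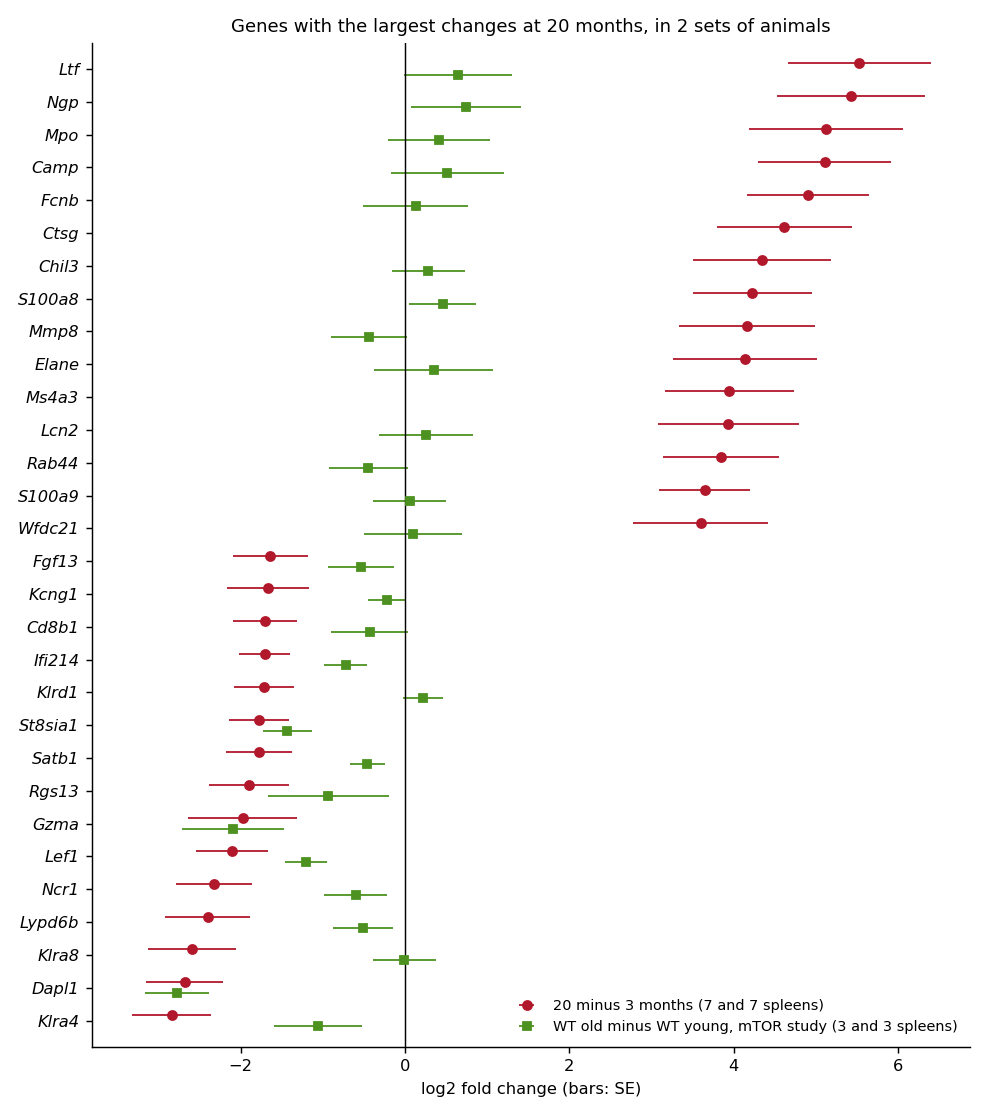
Log2 fold change with SE of the 30 named genes at 20 minus 3 months (red circles, 7 and 7 spleens) and at WT old minus WT young in the mTOR study (green squares, 3 and 3 spleens); Ctsg and Ms4a3 have no square because they were below the filter there. Ltf stands at 5.53 and 0.64, and Dapl1 at -2.68 and -2.77. Each SE uses the spread over all spleens of its own study.

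Brains of 3- and 20-month mice gave 36 calls at 20 against 3 months (0.231% of 15566 tested), 27 higher (0.173%) and 9 lower (0.0578%). That fit held these 2 ages alone, and the like fit in spleen called 875 genes. The brain titles carry the same codes as those of the spleens, but the labels do not say what the codes mean, so whether brains and spleens come from the same animals is not known. The 15 granule and precursor genes were below the filter in brain. Of the genes called higher in spleen 840 were tested in brain, and 514 (61.2%) had a positive log2 fold change there, against 50.2% of all tested genes. Of those called lower 577 were tested, and 311 (53.9%) had a negative one, against 49.8%. Of the 160 genes followed through these other comparisons 1 was called in brain, the integrin Itgax (2.09, SE 0.44, limma adjusted p = 0.044), which in spleen had a log2 fold change of -0.66 (limma adjusted p = 0.0898).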

How the data were processed

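Spleens were flash frozen, RNA was extracted with TRI-Reagent, and libraries were made with a TruSeq RNA kit from 1 µg, per the labels' protocols. HISAT2 2.1.0, cutadapt, bcl2fastq 2.20, SAMtools, DESeq2 and R 3.5.1, with the build GRCm38, are listed in the submitters' processing notes; the counting tool and annotation are not given in the sources used here. The values deposited by the authors are a normalised signal, the reads of a gene over 1 size factor per library: 100% of the values above 0 are whole multiples of what 1 read is worth (within 0.01 of a read), which gave each library's reads and size factor.

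The labels give each sample's age, tissue and genotype, and replicates are numbered in accession order. Genes with a value of 10 or more in at least 5 columns were kept (at least 3 in the mTOR-study table). limma 3.58.1 (R 4.3.3, trend) was fitted to log2(value + 1) with 1 mean per age over all 45 spleens, tested 2-sided for 20 minus 3 months, and p-values were adjusted by Benjamini-Hochberg over all tested genes. Brain and mTOR-study tables were normalised separately and were each tested within their own table. The brain fit held the 3- and 20-month libraries alone. The mTOR-study fit held all 12 libraries, with 1 mean per genotype and age class. Alternatives were edgeR 4.0.16 (quasi-likelihood) and DESeq2 1.42.0 on the recovered reads, other pseudocounts, filters, scalings and covariates, and leaving out libraries. The fit was also run on simulated reads. They were drawn independently for each gene, with the same spread at every age and no library set apart. That run therefore cannot speak to the shifts between alternatives. Replicates were not alike within sampling noise, the lowest ratio of their squared differences to counting error being 2.00 between 3-month libraries and 3.75 between 20-month libraries.

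Genes were named by size of change: of those called whose mean reached 50 in the age with the higher level, the 15 that increased most and the 15 that decreased most, without predicted genes, pseudogenes, antigen receptor segments and Y-linked genes, and up to 4 members with the smallest p in each of 34 marker lists with the members that define it. Results for a few genes are not reported here. Members and lists were chosen with earlier results of these data known. Positions are GENCODE M21 (GRCm38), promoters RefSeq (GRCm38.p6), and figures were drawn with matplotlib 3.10.9.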

Additional observations from a re-analysis of the deposited data

Results flagged for a closer look

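Each gene followed by library was examined in both ages for a highest or lowest animal that lay far from the other 6, over 159 genes and so 318 groups. This found 43 values, and chance alone flags about 1 in 20 groups. Most belong to the 2 libraries that stood apart.

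3-month replicate 5 was the lowest of its age for Dapl1 (41.1), Lypd6b (13.92), Lef1 (229.3), Satb1 (475.9), St8sia1 (55.68), Fgf13 (107.4), Pik3r4 (364.6), Dgka (1092), Txk (169), Vpreb3 (64.3), Rapgef4 (119.3), Dtx1 (366.6), Lck (472.6), Lat (284.4), Ralgps2 (1641), Runx1 (1082) and Tox (167.7). It was the highest of its age for Prg4 (154.4), Erg (376.5), Mcpt8 (24.53), Fabp4 (721.8), Id2 (1046), Igll1 (26.51), Prdm1 (300.3), Pdgfra (562.1) and Ifi44 (197.5). Most of the first set are genes of T and B cells that were lower at 20 months.

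20-month replicate 2 was the lowest of its age for Klrd1 (6.75), Vpreb3 (9) and Mybl1 (18), and had 0 for Lypd6b, Ncr1, Kcng1, Upk3b, Neil1 and Egr2. It was the highest for Mmrn1 (396), the factor V carrier of platelets. 20-month replicate 4 was the lowest for Col8a1 (51.57). 20-month replicate 7 was the lowest for Ifit1 (31.39), an interferon-stimulated gene, and the highest for the cell cycle factor E2f7 (167.8).

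Of the other 3-month libraries, replicate 7 was the lowest for the replication gene Gins2 (2.519) and for E2f7 (5.877) and the highest for Apoa1 (5.038), and replicate 1 was the highest for Ttr (41.53), both genes of liver.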

How the results depend on the processing

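The count of 1733 genes called at 20 against 3 months moved with the libraries used and their weights. It was 875 (553 higher, 322 lower) with the 3- and 20-month libraries alone, 5228 (2730 higher, 2498 lower) with sample weights, 685 (439 higher, 246 lower) without libraries under 5000000 reads (20-month replicates 1 and 2, 3-month replicate 1 and libraries of other ages) and 3159 (1696 higher, 1463 lower) with the share of Malat1 as a covariate. It was 2675 (1535 higher, 1140 lower) without 20-month replicate 2 and 3-month replicate 5. With 1 library left out it ran from 1006 (590 higher, 416 lower, without 3-month replicate 4) to 2739 (1495 higher, 1244 lower, without 3-month replicate 5). DESeq2 called 1552 genes higher. DESeq2 and edgeR called 155 and 9 genes at 20 against 14 months, where limma called 0, and DESeq2 called 1067 at 26 against 20 months, 114 in brain and 99 in the WT spleens of the mTOR study. The cause of these shifts was not tested. Pseudocounts of 0.5 and 5, both other filters, TMM scaling, the library total as a covariate and edgeR left the count within 1.5 times. The Malat1 covariate, the pair of libraries left out and the count tests of the other comparisons were chosen after seeing the data.

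Over 160 genes and all alternatives 3816 of 4295 values kept their direction and side of the threshold, 289 were no longer called and 190 became called, and 0 that were called changed sign. The 15 largest increases were called under every alternative that tested them; Fcnb, Ctsg, Ms4a3 and Rab44 were not tested under the stricter filter. Of the largest decreases Gzma and Kcng1 lost their call in several alternatives, Cd8b1 with the 2 ages alone and without the libraries under 5000000 reads, and Fgf13 without those libraries. No paired analysis was possible because the animals of the 2 ages differ and replicate numbers follow accession order only. Depth limits the genes with few reads, where 3 reads stand for a value of up to 6.75.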
